A study of Mus musculus with 28 samples.

Results

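The comparison described here set retroperitoneal fat pads of mice fed conjugated linoleic acid (CLA) for 4 days against pads of mice fed the control diet for the same time. Its members are the 2 arrays labelled day 4 with CLA and the 2 labelled day 4 control, 4 of the 28 arrays of a feeding series that also sampled days 1, 2, 3, 7, 10 and 17. All mice were 9 weeks old and of a strain that the labels spell C57BK/6J. The CLA diet held the trans-10 cis-12 isomer at 0.5%, and the control diet lacked it; no other allele or agent is named for either group. Each RNA came from pads of 10 mice pooled, so an array reports a pool and not an animal. Nothing in the labels says that both arrays of a group came from different pools; if they came from the same pool, the p-values below measure only technical spread.

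Trans-10 cis-12 CLA is a fatty acid isomer that shrinks white fat in mice. White adipocytes store triglyceride around a lipid droplet, make fatty acids from glucose under SREBP1c and ChREBP, keep their identity through PPAR-gamma and C/EBP-alpha, and release fatty acids through the lipases ATGL and HSL. Fat also holds macrophages, endothelium and progenitors, and macrophages that take up lipid from dying or emptying adipocytes build up lysosomes and a set of genes that includes Trem2 and Gpnmb. The question put to the data was which transcripts of the pad differed between the diets on day 4, and where day 4 stood apart from the other days.

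The values are log2 probe set levels on Affymetrix arrays, and on the 4 arrays of day 4 they ran from 1.98 to 14.04 with array medians of 4.12 to 4.14. The arrays of a diet agreed closely, with a correlation across genes of 0.995 for CLA and 0.993 for control against 0.979 to 0.995 over the series, and 44 and 68 genes lay more than 2-fold apart within the pairs. Only 2 arrays per group limit the precision of every value. The actin control probe sets, whose 3' minus 5' log2 signal grows as RNA is shortened, gave 0.77 and 0.84 for CLA and 1.14 and 1.48 for control. The same measure on the Gapdh probe sets was 0.42 and 0.56 against 0.52 and 0.43. The part of this difference in the results was not tested.

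The pads carried the markers of fat: Adipoq, the adipocyte hormone adiponectin, read 12.74 and 12.65 on the CLA arrays and 13.34 and 13.74 on the controls. Markers of neighbouring tissue were present too. The summed level of 14 skeletal muscle genes was 10.52 and 10.55 with CLA and 11.69 and 12.31 in control, lower on both CLA arrays. That of 11 mesothelium genes was 10.11 and 9.57 against 10.73 and 10.74, and that of 11 adrenal genes 8.49 and 8.60 against 8.05 and 7.96. In pooled tissue, fewer cells of a type and less RNA per cell cannot be told apart.

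On day 4, 4379 of 18193 genes changed, which is 24.1% of those tested. A gene is said to have risen or fallen where its adjusted p was under 0.05 in limma, over all genes. The error of a log2 fold is its standard error (SE), with n = 2 arrays per diet on each day. The spread behind the SE was estimated within the groups of all 28 arrays, not from the day 4 arrays alone. Of the changed genes 2328 rose (12.8%) and 2051 fell (11.3%). A 2-fold difference or more was seen in 2390 genes (13.1%), of which 1322 were higher with CLA (7.27%) and 1068 lower (5.87%). Both criteria were met by 2322 genes (12.8%), with 1298 up (7.13%) and 1024 down (5.63%). Both CLA arrays lay above both controls for 5178 genes (28.5%) and below both for 5707 (31.4%). The median log2 fold of all genes was -0.02. Every list below is to be read against these shares. Without the second CLA array the count was 2845 and 1286 genes fell, and without the second control array 1354 fell.

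**Figure D1:**
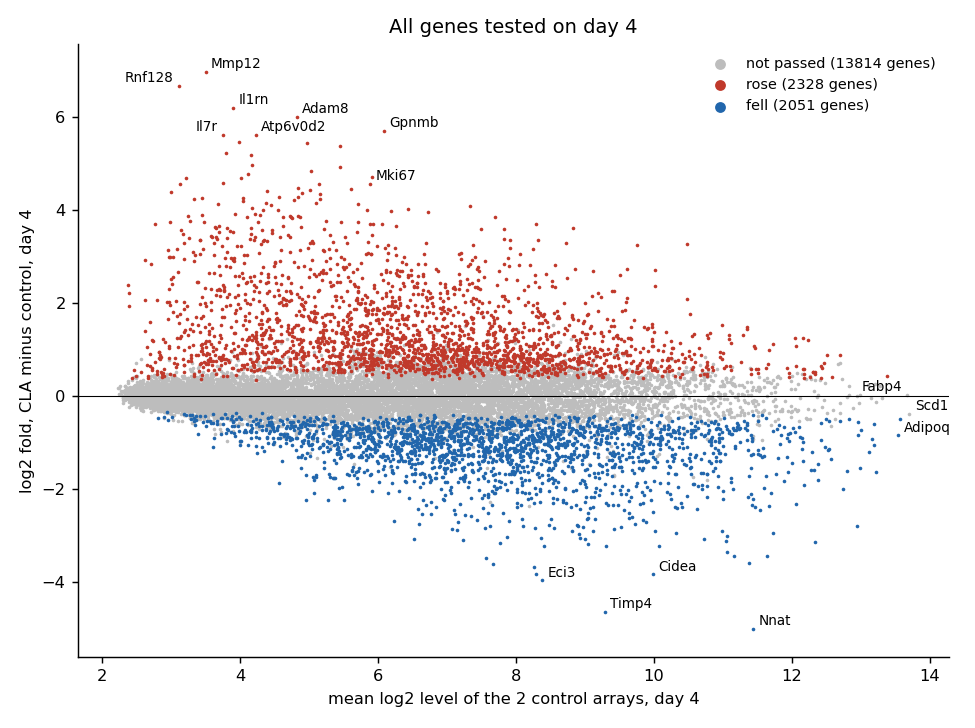
Log2 fold of CLA minus control on day 4 (y axis) against the mean log2 level of the 2 control arrays (x axis) for 18193 genes, with the 2328 that rose in red, the 2051 that fell in blue and the rest in grey. The largest rises, such as Mmp12 and Rnf128, started from low control levels, while Nnat and Cidea fell from high ones.

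The largest rise was that of Mmp12. Mmp12, the macrophage elastase, stood at 10.47 on both CLA arrays and at 3.65 and 3.34 on the controls. Its log2 fold was 6.97 ± 0.77 (adjusted p = 1.62e-06), a 126-fold difference. Rnf128, a ubiquitin ligase, read 9.47 and 10.12 against 3.15 and 3.08, a log2 fold of 6.68 ± 0.66. Il1rn, the antagonist that blocks the interleukin 1 receptor, read 10.14 and 10.03 against 3.71 and 4.07, with a log2 fold of 6.20 ± 0.55 and of 3.96 to 4.62 on its other probe sets. Adam8, a myeloid metalloproteinase, read 10.62 and 11.03 against 4.64 and 5.0. Gpnmb, a membrane glycoprotein of lipid-laden macrophages, read 11.68 and 11.89 against 5.97 and 6.20, a log2 fold of 5.70 ± 0.34 (adjusted p = 6.23e-09), and 3.36 on a further probe set. The CLA arrays lay above both control arrays in each of them, which the rule for naming them required.

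The next 7 rises covered a receptor, a proton pump subunit, an enzyme of DNA synthesis and genes of leukocyte traffic. Il7r, the interleukin 7 receptor, rose by 5.62 ± 0.48 on the log2 scale (3.88 on its other probe set), and Atp6v0d2, a subunit of the lysosomal proton pump found in macrophages and osteoclasts, by 5.62 ± 0.38. Rrm2, which makes deoxynucleotides, rose by 5.47 ± 0.64 and Rgs1, a brake on G protein signalling in leukocytes, by 5.45 ± 0.63. Ccl2, the chemokine that draws monocytes, read 10.90 and 10.77 against 5.52 and 5.38. Clec4d, a myeloid lectin, rose by 5.20 ± 0.63. Ptx3, a pentraxin made on inflammation, rose by 5.22 ± 0.45, but its other probe set gave 0.24.

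The largest fall was that of Nnat. Nnat, neuronatin, an imprinted membrane protein of fat and brain, read 6.40 and 6.44 with CLA and 11.20 and 11.67 in control, and fell by 5.01 ± 0.58 on the log2 scale (adjusted p = 2.54e-06). Timp4, a metalloproteinase inhibitor of fat, read 5.19 and 4.09 against 9.08 and 9.49. Eci3, a peroxisomal enoyl-CoA isomerase, read 4.46 and 4.37 against 8.19 and 8.57, a log2 fold of -3.96 ± 0.21 with the lowest adjusted p of the comparison, 1.69e-09. Cidea, a lipid droplet protein, read 6.25 and 6.03 against 9.98 on both controls. Pon1, a paraoxonase, read 4.56 and 4.34 against 8.20 and 8.38. B3galt2, a galactosyltransferase, Acsm3, an acyl-CoA synthetase, and Amy1, an amylase, had log2 folds of -3.67, -3.62 and -3.60. Slc2a13, a transporter of inositol, Sult1a1, a sulfotransferase, and Fmo1, a flavin monooxygenase, had -3.48, -3.45 and -3.35. For all of these the CLA arrays lay below both control arrays, which the rule for naming them required.

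**Figure D2:**
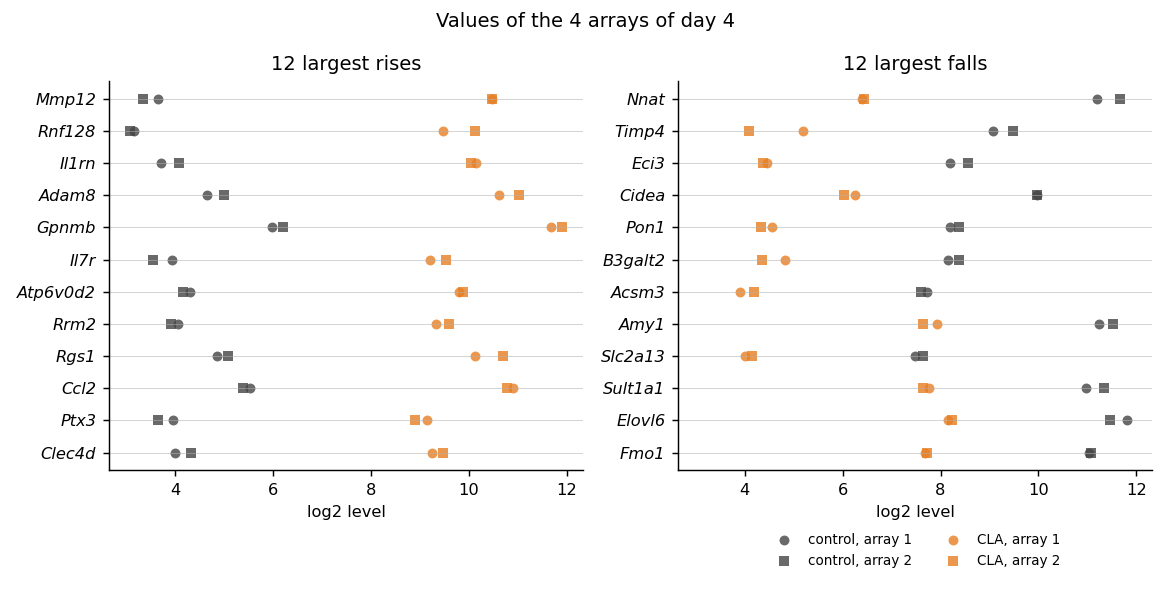
Log2 level on each of the 4 arrays of day 4 (x axis) for the 12 genes with the largest rise (left) and the 12 with the largest fall (right), with control in grey, CLA in orange, array 1 as a circle and array 2 as a square. The genes were chosen for large changes without overlap of the diets; Mmp12, for example, lies at 10.47 and 10.47 against 3.65 and 3.34.

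Genes that define adipocytes were lower. Among 22 adipocyte identity genes there were 16 falls and no rise, with a median log2 fold of -1.39. Pparg, the master regulator of adipocytes, read 9.33 and 9.44 with CLA and 10.66 and 10.99 in control, a log2 fold of -1.44 ± 0.18 (adjusted p = 5.43e-06). Cebpa, its partner, had -1.28 ± 0.29 and Adipoq -0.84 ± 0.14. Slc2a4, the insulin-responsive glucose transporter GLUT4, read 6.97 on both CLA arrays and 9.83 and 9.63 on the controls. Some abundant adipocyte transcripts did not pass the test. Lpl, lipoprotein lipase, read 13.26 and 13.26 against 13.11 and 13.51. Fabp4, a fatty acid carrier, read 13.72 and 13.67 against 13.46 and 13.88, a log2 fold of 0.03 ± 0.15. Other probe sets of Fabp4 gave -1.52 to -0.23, and the mean of its probe sets -0.80 (adjusted p = 0.0308), so its direction turns with the probe set.

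Of 10 adipokine genes 7 fell and none rose. Nrg4, a neuregulin that fat secretes, had a log2 fold of -2.39 ± 0.25 and Rbp4, the carrier of retinol, -2.33 ± 0.23. Lep, leptin, read 8.41 and 8.36 against 10.00 and 10.69, and Retn, resistin, had -1.21 ± 0.18. Imprinted growth genes were also lower, with 6 of 11 falling and a median of -0.93. After Nnat, Mest, a growth gene of expanding fat, had -2.04 ± 0.29, Plagl1, a zinc finger factor, -1.89 ± 0.18 and Sgce, epsilon-sarcoglycan, -1.50 ± 0.18. Further probe sets of Plagl1 (-0.61 to -0.21) and Sgce (-0.03) gave smaller differences.

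Genes of fatty acid synthesis fell among regulators and enzymes alike. Of 19 measured genes 15 fell and none rose, with a median of -1.65. Among the regulators, Mlxipl, which encodes ChREBP, read 5.62 and 5.75 against 8.60 and 8.34, a log2 fold of -2.79 ± 0.30 (adjusted p = 1.08e-06). Srebf1, which encodes SREBP1, had -2.01 ± 0.37 and Thrsp, a lipogenic regulator, -2.79 ± 0.22, with -3.74 to -0.35 on other probe sets. Among the enzymes, Fasn, fatty acid synthase, read 11.67 and 11.47 against 13.10 and 13.33. Elovl6, which lengthens palmitate, had -3.44 ± 0.24, with -3.48 to -0.53 on other probe sets. Pnpla3, a lipid droplet acyltransferase and lipase, had -3.23 ± 0.39. Scd1, the main desaturase of fat, read 13.37 and 13.26 against 13.44 and 13.95 and did not pass (-0.38 ± 0.16, adjusted p = 0.0973), while its other probe set gave -1.46 and other settings called it.

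Genes of both triglyceride synthesis and lipolysis fell. Of 11 genes of triglyceride synthesis 8 fell and none rose. Mogat1, a monoacylglycerol acyltransferase, read 5.84 and 5.86 against 9.02 and 9.05, a log2 fold of -3.18 ± 0.25. Pck1, which makes glycerol phosphate from pyruvate in fat, read 9.07 and 8.50 against 11.51 and 11.95, though its other probe sets ranged from -3.53 to 0.14. Lpin1, a phosphatidate phosphatase, had -1.85 ± 0.26 and Dgat2, which adds the last acyl chain, -1.36 ± 0.26. Of 9 genes of lipolysis and its control 7 fell. Hcar2, the receptor for hydroxybutyrate that restrains lipolysis, had -2.09 ± 0.27, Pde3b, the phosphodiesterase through which insulin restrains it, -1.71 ± 0.25 and Mgll, monoacylglycerol lipase, -1.41 ± 0.35, with -1.77 to 0.00 on other probe sets. Pnpla2, which encodes ATGL, fell by 1.45 ± 0.42 on the log2 scale (adjusted p = 0.015), but its call was lost whichever of the 4 arrays was left out. Lipe, which encodes HSL, read 9.17 and 8.76 against 10.50 and 11.04 and did not pass (adjusted p = 0.0765), while other settings called it.

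The breakdown of branched-chain amino acids, which feeds carbon to fat synthesis in adipocytes, fell in 14 of 15 measured genes, with a median of -1.51. Mccc1 and Mccc2, the subunits of methylcrotonyl-CoA carboxylase, had log2 folds of -1.96 ± 0.14 and -2.51 ± 0.45. Ivd, isovaleryl-CoA dehydrogenase, read 7.48 and 7.45 against 9.65 and 9.95. Aldh6a1, methylmalonate semialdehyde dehydrogenase, had -2.22 ± 0.20.

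Genes of mitochondrial pathways were lower by smaller amounts. In the citrate cycle and its entry, 11 of 15 genes fell with a median of -0.78. Pdha1, the pyruvate dehydrogenase subunit, had -1.25 ± 0.13, Suclg2, a succinyl-CoA ligase, -1.04 ± 0.19 and Dlat, the acetyltransferase of the dehydrogenase, -0.91 ± 0.17. Pcx, pyruvate carboxylase, had -2.11 ± 0.52 but was not called without the second CLA array. Of 24 respiratory chain subunits 8 fell, with a median of -0.50, led by Sdha at -0.84 ± 0.16 and Ndufs1 at -0.81 ± 0.15. Fatty acid oxidation, with 21 genes, had 10 falls and 2 rises. Ehhadh, the peroxisomal bifunctional enzyme, had -1.76 ± 0.20 and Eci1, an isomerase, -1.61 ± 0.22, whereas Cpt1a, the gate of fatty acid entry into mitochondria, rose from 7.58 and 8.21 to 9.39 and 9.56 (log2 fold 1.58 ± 0.24). The muscle markers, which also bear mitochondria, were lower with CLA as given above, and their part in these values was not tested.

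Insulin signalling and glucose use had 9 falls and 2 rises among 17 genes. Gys2, a glycogen synthase, had -2.29 ± 0.21, Irs3, an insulin receptor substrate of rodent fat, -2.17 ± 0.38 and Foxo1, a transcription factor under insulin, -1.89 ± 0.23, with -1.77 to -0.03 on its other probe sets. Of 14 genes of thermogenic and brown adipocytes 6 fell and 1 rose. Cox8b, a cytochrome oxidase subunit of brown fat and muscle, read 7.49 and 7.26 against 10.10 and 10.55. Ucp3, a mitochondrial uncoupling protein, had -2.20 ± 0.22. Ucp1, the uncoupling protein of brown and beige fat, read 6.62 and 6.96 against 6.34 and 7.03, and the diets overlapped. Cholesterol synthesis had 4 falls and no rise among 15 genes, with a median of -0.09. Thus 26.7% changed against 24.1% of all genes, of which 11.3% fell. Fdft1, squalene synthase, had -1.23 ± 0.29, with other probe sets from -1.28 to 0.19, and Pmvk, phosphomevalonate kinase, -0.93 ± 0.21.

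Macrophage genes rose. Of 17 genes of macrophage identity 15 rose and none fell, with a median of 2.16, and their summed level was 15.06 and 15.24 with CLA against 13.11 and 13.44 in control. Adgre1, the F4/80 antigen, read 10.87 and 11.19 against 8.17 and 8.24, a log2 fold of 2.82 ± 0.26 (adjusted p = 2.29e-07). Cd68, a lysosomal membrane protein of macrophages, read 11.83 and 12.12 against 7.98 and 8.59. Fcgr1, the high-affinity IgG receptor, rose by 4.45 ± 0.53 (3.09 on its other probe set) and Mpeg1, a pore-forming protein of phagocytes, by 3.36 ± 0.35. Ms4a7, a tetraspanin-like membrane protein, rose by 2.99 ± 0.30, with 0.31 on its other probe set.

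Genes of lipid-associated macrophages rose as well. Of 14 measured, 12 rose and 1 fell, with a median of 2.27. Trem2, the lipid receptor that sets this state, read 8.95 and 9.03 against 4.64 and 4.92, a log2 fold of 4.21 ± 0.30 (adjusted p = 1.55e-08), with 0.18 on its other probe set. Mmp12, Gpnmb and Atp6v0d2, given above, belong to the same list. The list of resident or alternatively activated macrophages did not move one way, with 6 rises and 4 falls among 14 genes. Arg1, arginase, read 7.43 and 7.95 against 3.54 and 3.34, Chil3, a chitinase-like protein, 7.99 and 7.16 against 3.26 and 3.40, and Clec10a, a lectin, 11.54 and 11.80 against 9.07 and 9.77. Il10, an anti-inflammatory cytokine, rose by 2.05 ± 0.22. Retnla, a resistin-like protein of alternatively activated macrophages, fell from 12.31 and 12.45 to 10.56 on both CLA arrays (log2 fold -1.82 ± 0.15, adjusted p = 9.63e-08).

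Lysosomal genes rose. Of 22 measured genes 18 rose and none fell, with a median of 1.36, and 15 of the 22 had a larger effect on day 4 than on any other day, as did 13.5% of all genes tested. The list medians of days 4 and 7 lay close (1.36 and 1.31), and 0 of the 22 passed the test of day 4 against the other days in limma. Atp6v1c1, a proton pump subunit, and Glb1, a lysosomal enzyme, lie outside the list and are named after their values were seen. They passed that test at 0.93 ± 0.17 (adjusted p = 0.0159) and 0.69 ± 0.15 (adjusted p = 0.0365). Gla, alpha-galactosidase, read 8.42 and 8.53 against 4.6 and 4.64 (log2 fold 3.85 ± 0.32), but 0.08 to 1.91 on its other probe sets. Lipa, the acid lipase that frees fatty acids and cholesterol from ingested lipid, read 10.85 and 11.32 against 7.65 and 8.16. Ctss, a cathepsin that processes antigen, read 12.68 and 12.79 against 9.95 and 10.09. Lysosomal genes are known targets of TFEB and TFE3, which bind the letters CACGTG within a longer element. The RefSeq table holds a promoter for 17 of the 22 genes. These letters stood in the 250 bases before the start site, read on both strands, in 6 of them (35.3%), against 7.56% of 14452 tested genes with a promoter and 6.05% of 27025 promoters. Of the 13 with a promoter that rose, 4 held them. The Gla promoter is shown because it holds them more than once; it lies at chrX:134601006-134601255 on the minus strand (RefSeq, GRCm38.p6), and the capitals mark its 2 matches.
Gla: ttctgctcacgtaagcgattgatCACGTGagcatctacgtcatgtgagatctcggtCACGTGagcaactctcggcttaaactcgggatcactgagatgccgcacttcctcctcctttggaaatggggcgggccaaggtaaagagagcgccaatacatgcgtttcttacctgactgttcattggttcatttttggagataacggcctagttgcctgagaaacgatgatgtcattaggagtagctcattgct
The Lipa promoter held no match in this window. A match of letters is a description and no evidence of binding.

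Nceh1, a cholesteryl ester hydrolase of macrophages, read 9.61 and 10.11 against 4.87 and 5.18 and was the largest rise among 10 genes of lipid efflux and LXR targets, of which 4 rose and 2 fell. Msr1, a scavenger receptor, rose by 2.77 ± 0.42, with 0.93 to 3.44 on other probe sets, and Plin2, the droplet coat protein of many cell types, by 1.24 ± 0.20. Abcg1, a sterol exporter, rose by 1.62 ± 0.44, a call lost without the second CLA or the first control array. All 5 measured genes of the phagocyte oxidase, which makes superoxide, rose. Cyba, its membrane subunit p22phox, read 11.30 and 11.51 against 7.94 and 8.54, and Cybb, its catalytic subunit, 9.26 and 10.23 against 6.85 and 7.96. Ncf4 and Rac2, cytosolic parts of the complex, rose by 2.45 ± 0.28 and 2.29 ± 0.29, with 0.18 on a further probe set of Rac2.

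Of 12 leukocyte integrins and adhesion molecules 10 rose. Itgam and Itgax, the alpha chains CD11b and CD11c, rose by 2.89 ± 0.39 and 2.46 ± 0.27 and Itgb2, their shared beta chain, by 3.06 ± 0.31. Cd44, the hyaluronan receptor, read 11.41 and 11.42 against 7.31 and 7.34, although its other probe sets ranged from -0.17 to 4.26. Of 21 chemokines and chemokine receptors 16 rose and none fell, with a median of 1.89. After Ccl2 came Ccl7, a further monocyte chemokine, at 8.95 and 8.74 against 4.08 and 5.05 (log2 fold 4.28 ± 0.70), and Ccl3, at 7.30 and 7.53 against 3.85 and 3.77. Ccl9, an abundant myeloid chemokine, read 12.95 and 13.04 against 9.5 and 10.0.

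Of 25 cytokine and receptor genes 8 rose and none fell, so 32% passed against 24.1% of all genes, of which 12.8% rose. Il6, interleukin 6, read 3.17 and 2.97 against 2.66 and 2.91, near the low end of the array's range, and did not pass (0.28 ± 0.25). Tnf, tumour necrosis factor, rose by 0.55 ± 0.15 (adjusted p = 0.00991), a call lost without the second CLA or the second control array. Il10ra, the interleukin 10 receptor, rose by 1.79 ± 0.29 (-0.06 to 0.74 on other probe sets) and Tgfb1, transforming growth factor beta, by 2.67 ± 0.63 (0.15 on its other probe set). Among 12 enzymes of prostaglandin and leukotriene synthesis 4 rose and 2 fell. Alox5ap, the partner of 5-lipoxygenase, read 11.31 and 11.43 against 8.48 and 8.64, and Tbxas1, thromboxane synthase, and Pla2g7, which breaks down platelet activating factor, rose by 2.01 ± 0.24 and 2.04 ± 0.29. Ptges, a prostaglandin E synthase, had -2.04 ± 0.40. Acute phase proteins split, with 3 rises and 3 falls among 11. Orm1, orosomucoid, read 9.77 and 9.45 against 11.62 and 11.79, while Saa3, a serum amyloid of fat and macrophages, rose by 1.91 ± 0.50, a call lost without the first CLA array.

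Interferon-induced genes rose in 12 of 15 cases and fell in none, with a median of 1.94, and 9 of the 15 had their largest effect of the 7 days on day 4, against 13.5% of all genes. Oas1a, an oligoadenylate synthetase, read 10.04 and 10.29 against 7.15 and 7.5 (log2 fold 2.84 ± 0.32, adjusted p = 2.04e-06). Mx1, an antiviral GTPase, Oasl2 and Cxcl10, a chemokine, rose by 2.27 ± 0.44, 2.19 ± 0.25 and 2.59 ± 0.39. The day 4 effect on Oas1a exceeded the mean of the other 6 days by 1.10 ± 0.35 (adjusted p = 0.231), which did not pass the test. Of the 15 genes in the list 0 passed the test of day 4 against the other days in limma. Oas3, a synthetase outside the list and named after its values were seen, passed that test at 1.33 ± 0.28 (adjusted p = 0.0295). On day 2 Oas1a read 9.14 and 7.44 on the control arrays. The part of the first of these arrays in the excess of day 4 was not tested.

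Markers of other leukocytes passed at shares between 0% and 30%, against 24.1% of all genes. Of 12 genes of MHC class II and costimulation 2 rose (16.7%), Cd83 by 2.13 ± 0.32 and Cd40 by 1.06 ± 0.31, and the call of Cd40 was lost whichever array was left out. H2-Eb1, a class II chain, read 9.77 and 9.81 against 9.93 and 10.13. Of 13 genes of T and NK cells 2 rose (15.4%), the granzymes Gzma (1.3 ± 0.37) and Gzmb (0.80 ± 0.28), each lost on leaving out any of 3 arrays. Of 10 genes of B and plasma cells 2 rose and 1 fell (30%). Sdc1, syndecan 1, which plasma cells share with epithelium and other cells, read 8.26 and 8.39 against 4.91 and 5.52, while Ms4a1, the CD20 antigen of B cells, read 3.17 and 3.30 against 3.90 and 3.85, a call lost whichever array was left out. Of 11 neutrophil genes 1 rose and 2 fell (27.3%), with Mmp9, a gelatinase, at -1.14 ± 0.19. Among 13 genes of mast cells and eosinophils 0 passed in limma, also at an unadjusted p under 0.05. Cma1, a chymase, read 7.16 and 7.16 against 7.31 and 7.38.

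Among the lists with more than 5 measured genes, that of the cell cycle had the highest share of genes that rose. Of 29 genes of the cell cycle and DNA replication 28 rose and none fell, 96.6% against 12.8% of all genes that rose, with a median of 3.40. Mki67, the Ki-67 antigen of cycling cells, read 10.24 and 10.64 with CLA and 5.70 and 6.06 in control, a log2 fold of 4.56 ± 0.52 (adjusted p = 2.3e-06). Rrm2 read 9.33 and 9.58 against 4.05 and 3.91. Birc5, survivin, read 9.06 and 9.23 against 3.80 and 4.54. Ccnb2, a mitotic cyclin, read 8.46 and 8.97 against 4.19 and 3.84. These genes covered replication and mitosis alike, and the array data do not say which cells divided. Genes that restrain the cycle split, with 3 rises and 3 falls among 14. Cdkn2c, the inhibitor p18, fell by 1.23 ± 0.38 on the log2 scale, a call lost whichever array was left out. Gadd45b, a stress-induced gene, rose by 1.89 ± 0.31 (0.14 to 2.21 on other probe sets), and Cdkn1a, the inhibitor p21, by 1.37 ± 0.34, a call lost without the second control array. Mdm2, the ligase that restrains p53, rose by 1.33 ± 0.21, with -0.13 to 1.74 on other probe sets.

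Promoters of mitotic genes are known for CCAAT boxes, bound by NF-Y, and for the cell cycle homology element TTTGAA, bound by the DREAM complex. The table holds a promoter for 25 of the 29 genes, and 20 of these (80%) held CCAAT in the 250 bases before the start site on either strand, against 35.7% of tested genes with a promoter and 34.5% of all promoters. TTTGAA stood in 8 (32%) against 11.9% and 16.3%, and both stood in 8 (32%) against 4.38% and 5.73%. The 2 promoters below were chosen for the size of the rise and hold matches, which are in capitals. That of Rrm2 lies at chr12:24708004-24708253 on the plus strand and holds 1 CCAAT. That of Ccnb2 lies at chr9:70421555-70421804 on the minus strand and holds 3 CCAAT and 1 TTTGAA (both RefSeq, GRCm38.p6).
Rrm2: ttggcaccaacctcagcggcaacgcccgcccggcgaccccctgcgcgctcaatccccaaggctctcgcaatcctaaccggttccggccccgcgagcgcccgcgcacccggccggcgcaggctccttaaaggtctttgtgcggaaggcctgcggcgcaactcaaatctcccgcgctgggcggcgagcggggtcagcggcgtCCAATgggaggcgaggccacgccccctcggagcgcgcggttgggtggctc
Ccnb2: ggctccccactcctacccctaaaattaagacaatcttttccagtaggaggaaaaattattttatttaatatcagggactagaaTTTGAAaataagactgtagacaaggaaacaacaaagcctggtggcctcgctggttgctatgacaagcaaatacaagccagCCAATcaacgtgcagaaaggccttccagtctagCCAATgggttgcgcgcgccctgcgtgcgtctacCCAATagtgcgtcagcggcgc
The Birc5 promoter held neither motif in this window.

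Stress genes rose in several lists. Of 18 immediate early genes 9 rose and none fell. Fos, a subunit of AP-1, read 10.49 and 10.74 against 6.32 and 5.49, and its partners Fosl1 and Junb rose by 3.36 ± 0.38 and 2.06 ± 0.37, with 1.77 on a further probe set of Fosl1. Egr2, a growth response factor, rose by 3.35 ± 0.41. Integrated stress response genes rose in 10 and fell in 5 of 19. Atf3, a stress transcription factor, read 9.16 and 9.34 against 5.15 and 5.05, Trib3, a pseudokinase, rose by 2.27 ± 0.29 and Ddit3, the factor CHOP, by 2.20 ± 0.23, with 0.24 on its other probe set. Phgdh, the first enzyme of serine synthesis and a target of the same pathway, had -2.06 ± 0.24.

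Of 17 endoplasmic reticulum chaperones and folding genes 14 rose and none fell. Hspa5, the chaperone BiP, read 12.84 and 12.73 against 11.34 on both controls (1.45 ± 0.18), and Manf, Creld2 and Sdf2l1, small proteins induced when folding fails, rose by 1.99 ± 0.26, 2.02 ± 0.26 and 2.27 ± 0.38. Of 12 cytosolic heat shock genes 7 rose, led by Hspa1b at 1.79 ± 0.37 and Hspa1a at 1.63 ± 0.27, near-identical copies whose signals may be mixed. NRF2 targets and glutathione genes split, with 7 rises and 3 falls among 16. Hmox1, heme oxygenase, read 9.60 and 8.81 against 6.27 and 5.10, and Srxn1, sulfiredoxin, and Mt2, a metallothionein, rose by 2.42 ± 0.38 and 2.03 ± 0.30. Gsta3, a glutathione transferase, read 7.95 and 7.87 against 10.22 and 10.44. Of 13 cell death regulators 8 rose and 1 fell. Bcl2l11, the death promoter BIM, rose by 2.11 ± 0.50, a call lost without the first CLA array, Pmaip1, NOXA, by 2.02 ± 0.27 and Apaf1, the caspase scaffold, by 1.85 ± 0.30. Of 16 clock genes 8 fell and none rose. Cry2, a repressor of the clock, had -1.45 ± 0.17, and Nr1d1, REV-ERB alpha, -1.78 ± 0.48, a call lost without the second CLA or second control array.

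Matrix genes passed the test at a lower share than all genes, and those that passed rose. Of 23 extracellular matrix genes 4 rose and none fell, so 17.4% changed against 24.1% of all genes. Of all genes 12.8% rose. Postn, periostin, rose by 1.03 ± 0.14 and Thbs1, thrombospondin, by 1.25 ± 0.25. Col1a1, collagen I, read 11.06 and 11.04 against 10.03 and 10.48 and did not pass (0.79 ± 0.68), while 2 other settings called it. Of 18 metalloproteinases and inhibitors 6 rose and 3 fell. Timp1 read 8.71 and 8.29 against 4.78 and 4.97, opposite to Timp4. In the TGF-beta and activin family 4 of 18 genes fell and 2 rose. Inhbb, the activin B chain of adipocytes, had -2.85 ± 0.29 (-0.53 on its other probe set) and Bmp6, a bone morphogenetic protein, -1.58 ± 0.26.

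Endothelial genes fell in 9 of 13 cases, with a median of -1.32 and a summed level of 10.06 and 9.99 with CLA against 10.86 and 11.18. Emcn, endomucin, read 5.67 and 5.58 against 7.02 and 7.18, and Robo4, a receptor of vessel walls, had -1.50 ± 0.23. Cdh5, VE-cadherin, had -1.68 ± 0.52, a call lost whichever array was left out. Of 13 genes of adipocyte progenitors 2 fell, with Zfp423, a factor of preadipocytes, at -1.75 ± 0.30. Mesothelial genes fell in 6 of 11 cases, and 9 of the 11 had their lowest effect of the 7 days on day 4, as did 11% of all genes tested; 0 of the 11 passed the test of day 4 against the other days in limma. Upk3b, a uroplakin, read 8.51 and 7.79 against 9.18 and 9.11 and Krt19, a keratin, 6.57 and 5.83 against 7.11 and 7.37, so the second CLA array was the lower one, and without it neither was called. Of 14 muscle genes 1 fell, Myl1, at 8.66 and 8.57 against 10.06 and 10.53, lost whichever array was left out. The muscle median was -1.18. Kidney genes (11), lymph node and pancreas genes (7) and erythroid genes (3) held no call in limma, with 1 gene in each list at an unadjusted p under 0.05. The erythroid one, Alas2, read 8.43 and 7.80 against 8.90 and 9.21 (-0.94 ± 0.34, adjusted p = 0.052), and other settings called it. Star, which carries cholesterol into mitochondria, was the only call among 11 adrenal genes, at 6.88 and 7.07 against 4.97 and 5.49.

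**Figure D3:**
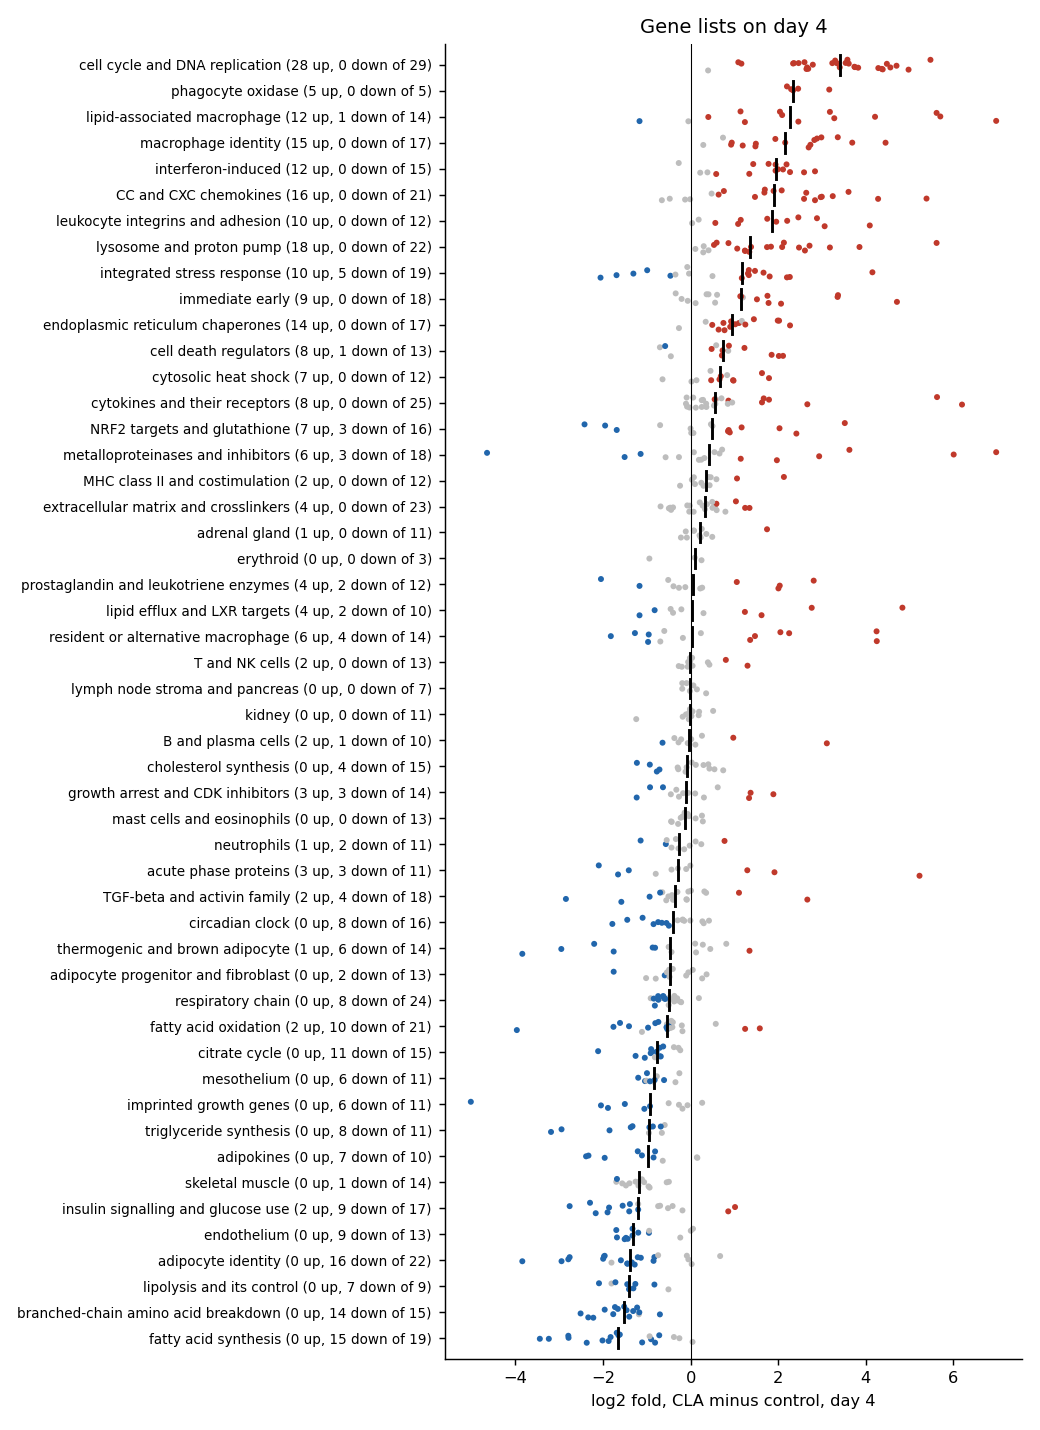
Log2 fold of CLA minus control on day 4 (x axis) for each measured gene of 50 lists (rows, ordered by median), with genes that rose in red, those that fell in blue, those that did not pass in grey and the median as a black bar. The cell cycle list has the highest median, 3.40 with 28 of 29 genes rising, and fatty acid synthesis the lowest, -1.65 with 15 of 19 falling.

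On the other days the counts of changed genes were 3420 on day 1 (18.8%), 1852 on day 2 (10.2%), 4056 on day 3 (22.3%), 3151 on day 7 (17.3%), 3687 on day 10 (20.3%) and 3688 on day 17 (20.3%). They were not compared by a test, and leaving out 1 array took the day 4 count to 2845 to 3398, below days 3, 10 and 17 with all their arrays. No array serves more than 1 day. The 2 control arrays lay more than 2-fold apart in 818 genes on day 1 and 724 on day 2, against 68 on day 4. The part of this spread in the counts was not tested. Of the genes called on day 4, 3280 were called in the same direction on day 3 (74.9% of the day 4 calls and 80.9% of the day 3 calls) and 2698 on day 7 (61.6% and 85.6%), with none opposite. With day 1 the overlap was 1639 (37.4% and 47.9%), and 126 genes were called in opposite directions. The correlation of the log2 folds across genes was 0.929 with day 3 and 0.502 with day 1, and genes are not independent replicates. On day 1 the 3' minus 5' actin signal was 2.72 and 2.28 with CLA and 2.77 and 1.5 in control. The Gapdh signal was 1.31 and 1.27 against 1.33 and 0.15. The part of RNA quality in the day 1 effects, and so in the mean effect of the other days, was not tested.

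The effect on day 4 minus the mean effect of the other 6 days differed from 0 in 113 genes (0.621% of those tested), higher in 104 (0.572%) and lower in 9 (0.0495%). The largest excess was that of Il1rn. Of the 29 genes of the cell cycle list 11 were among the 104, against 0.572% of all genes. That list does not hold every gene of the cycle, and Pclaf and Spdl1, given here, and Cenpi, Cdca8, Tacc3 and Mcm10, given below, are among the 104 but outside it. Plk1, the polo-like kinase of mitosis, read 7.45 and 8.01 with CLA on day 4 and 4.39 on both controls. Its effect was 3.34 on day 4, 2.72 on day 3 and 0.58 on day 7, and exceeded the mean of the other days by 2.36 ± 0.26 (adjusted p = 0.000311). Pclaf, a PCNA partner, Ccnb2, Aurka, a spindle kinase, Ube2c, a ubiquitin conjugating enzyme of mitosis, and Spdl1, a spindle protein, exceeded it by 2.35, 2.29, 2.23, 2.23 and 2.18. The other probe set of Aurka showed a day 4 effect of 0.03, and those of Pclaf -0.12 to 3.76. The median effect over the 29 cell cycle genes was -0.03, 1.65 and 3.13 on days 1, 2 and 3, 3.40 on day 4, and 1.79, 1.68 and 1.57 on days 7, 10 and 17. The 2 control arrays of day 2 differed from each other. Pclaf read 8.45 and 6.08 on them, Mki67 8.52 and 6.03 and Plk1 4.98 and 4.65, while Pclaf with CLA on day 2 read 9.59 and 9.63. The part of the first control array in the day 2 median was not tested, and counts without it are given under processing.

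Outside the cell cycle, Il1rn exceeded the other days by 2.62 ± 0.59 (adjusted p = 0.0462) and Cd5l, a secreted macrophage protein, by 2.21 ± 0.43. Gpnmb passed at 1.65 ± 0.37 while its effect was larger on day 7, 6.01, than on day 4. Il10, Cenpi, Clspn and Tacc3, given below, are also among the 104 but had a larger effect on day 3 than on day 4. Their effects were 2.195, 3.53, 3.115 and 3.505 on day 3 and 2.05, 3.49, 2.905 and 2.96 on day 4. The 104 were chosen for a day 4 effect above the mean of the other days, so the next counts largely follow from that choice. Of the 104 higher genes 73 had their largest effect on day 4, against 13.5% of all genes, and 102 rose on it, against 12.8%. The other 2, Idi1 and Sqle, enzymes of sterol synthesis named after their values were seen, were -0.11 and 0.54 on day 4 and did not pass there. Among the 9 lower genes, Inmt, an indolethylamine methyltransferase, read 6.10 and 5.76 with CLA and 8.61 and 9.20 in control, and its difference from the other days was -1.78 ± 0.29. Zfp185 is listed at -1.17, Ldhb, a lactate dehydrogenase chain, at -1.05, Inca1, an inhibitor of cyclin-dependent kinase, at -0.94, Sncaip, synphilin, at -0.92, Ppm1l, a phosphatase, at -0.90, Retnla at -0.90 and Lysmd2 at -0.85. Other probe sets of Inca1 (-0.02) and Sncaip (0.01) showed no such fall on day 4. The remaining gene, Fbln7, a fibulin that the naming rule leaves out, had a day 4 effect of 0.41 between lower and higher days. Fewer such genes passed when 1 of the 4 arrays of day 4 was left out, which leaves 1 array in a group. All 113 kept their sign, but they were chosen on these same data, so this is no separate support.

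**Figure D4:**
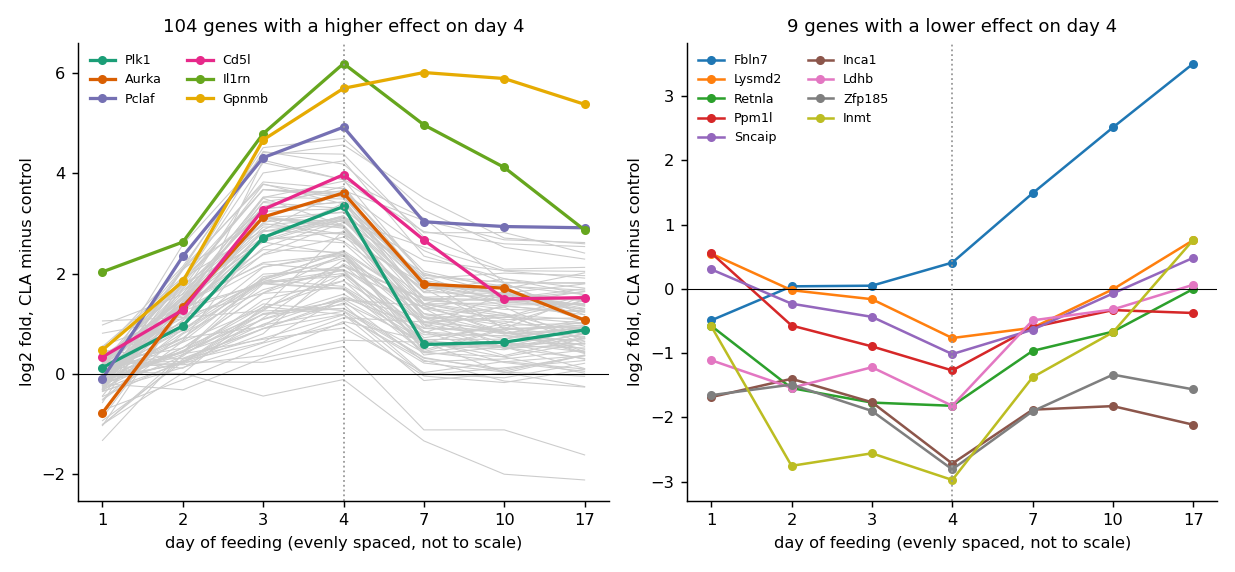
Log2 fold of CLA minus control (y axis) on each day of feeding (x axis, evenly spaced) for the 104 genes whose effect on day 4 was above the mean of the other days (left, 6 of them in colour) and the 9 below it (right). Plk1 goes from 2.72 on day 3 through 3.34 on day 4 to 0.58 on day 7, while Fbln7 climbs through day 4.

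No gene passed the test of a difference between the effects of days 3 and 4. The difference of the 2 daily effects passed in 0 of 18193 genes (0%) in limma, with 0 higher and 0 lower, 476 genes at an unadjusted p under 0.05 and a lowest adjusted p of 0.877. Between day 4 and day 7 the effects differed in 20 genes (0.11%), 5 higher on day 7 (0.0275%) and 15 lower (0.0824%). Ucp1 read 6.62 and 6.96 with CLA on day 4 and 10.46 and 11.68 on day 7, against 7.59 and 5.88 in the day 7 controls, and its effect rose by 4.23 ± 0.80 from day 4 to day 7 (adjusted p = 0.0449). Cidea went from 6.25 and 6.03 to 8.98 and 10.58 with CLA, against 9.14 and 9.97 in the day 7 controls, a difference of effects of 4.06 ± 0.57. Clec7a, the beta-glucan receptor dectin 1, Rnf180, a ubiquitin ligase, and H2-Eb1 were higher on day 7 by 2.19, 1.69 and 1.55.

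Of the 15 lower on day 7, 2 are in the cell cycle list, which does not hold every gene of the cycle. The 6 with the largest difference follow, and of these only Plk1 is in the list. Plk1 was lower by -2.76 ± 0.34 (adjusted p = 0.00271), Cdca8 and Tacc3, of the mitotic spindle, by -2.04 each, Cenpi, of the centromere, by -2.02, Mcm10, of the replication fork, by -1.94 and Clspn, claspin, by -1.78. Further probe sets of Mcm10 (-0.05 to 0.23), Clspn (0.13) and Tacc3 (0.41 to 1.25) showed smaller day 4 effects. Il10, at 5.06 and 5.16 on day 4 and 3.49 and 3.64 on day 7 with CLA, was lower by -1.67 ± 0.31. Fewer such genes passed when 1 array of day 4 or of day 7 was left out, which leaves 1 array in a group. Dependence on single arrays and lost precision cannot be told apart here. All 20 kept their sign without any 1 array of day 4, but they were chosen on these same data.

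**Figure D5:**
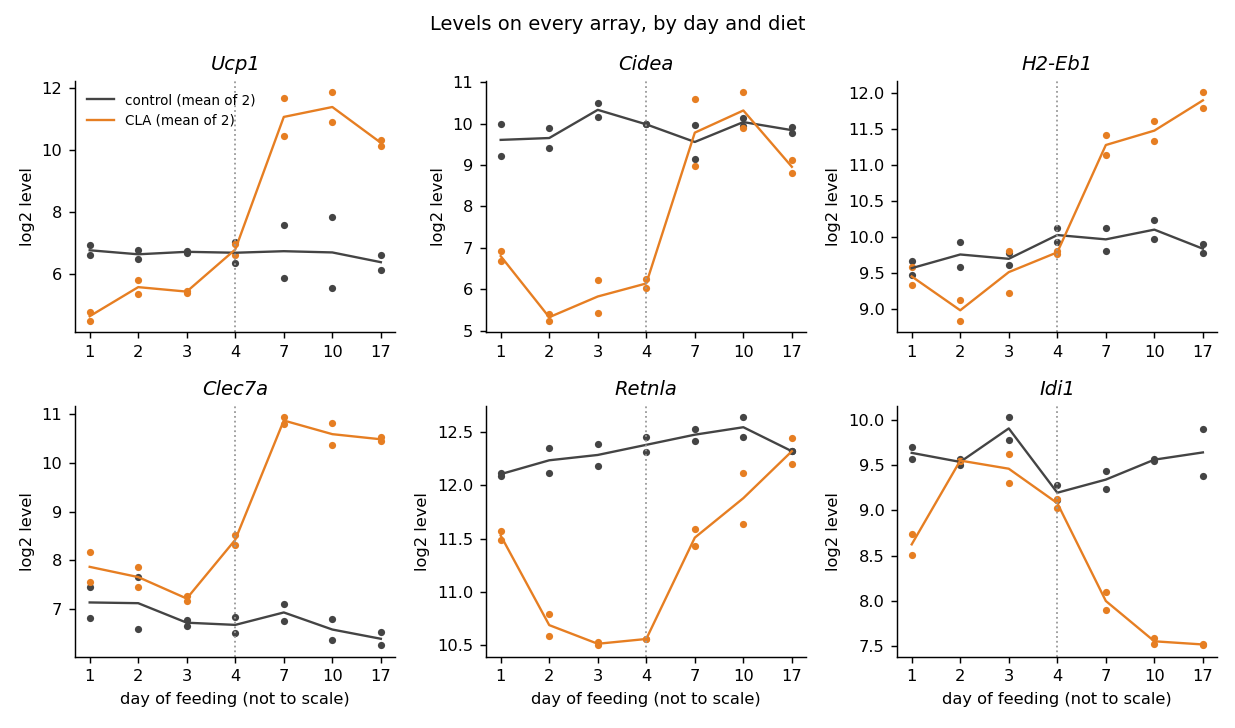
Log2 level (y axis) on every array by day of feeding (x axis, evenly spaced) for Ucp1, Cidea, H2-Eb1, Clec7a, Retnla and Idi1, with control in grey, CLA in orange, a point per array and a line through the mean of 2. Ucp1 with CLA lies at 6.62 and 6.96 on day 4, among the controls, and at 10.46 and 11.68 on day 7.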

How the data were processed

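Retroperitoneal fat pads of 2 diets on 7 days were measured on 28 Affymetrix arrays, 2 per diet and day. The deposited values are log2 probe set levels that the authors made with RMA, per the submitters' processing notes; RMA corrects background, quantile-normalises the arrays and summarises probes, so it can understate large folds of dim genes. They were used as deposited. The build behind the probe annotation is not given in the sources used here. Of 45101 probe sets, 34958 name 1 gene, 932 several and 9211 none, and 34754 matched the GRCm38.p6 gene table by gene ID. Each of 18193 genes is represented by its brightest probe set (mean of the 28 arrays), array controls left out. Promoter sequences come from the RefSeq table, the 250 bases before the start.

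One limma 3.58.1 model (R 4.3.3) of the 14 groups, leaving 14 residual degrees of freedom, yielded the effect of CLA (CLA minus control) on day 4 and its differences between days, two-sided, with p-values adjusted by Benjamini and Hochberg over all genes. Named genes follow a rule: the 12 largest changes each way with arrays that do not overlap, the 4 largest changed genes of each list (the 2 of highest level where fewer than 2 changed), a set of adipocyte and inflammation genes, the 8 largest each way against the other days and the 6 largest against a neighbouring day, predicted genes left out. The members and lists were chosen with earlier results of these data known. Tested on simulated data, the fit recovered 70% of 100 genes changed by 1 on the log2 scale and 97% of 100 changed by 2, with 4 false calls. No other gene of the 18193 was changed in the simulation, and its noise was normal and independent between genes. In the data 4379 genes were called, so these rates do not give the recovery or the false calls of the reported comparison. Alternatives were leaving out arrays, the arrays of day 4 alone, a replicate block, renormalisation, a filter on dim genes, other rules for probe sets and another prior. Plots used Python 3.11.15 and matplotlib 3.10.9.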

Additional observations from a re-analysis of the deposited data

Results flagged for a closer look

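The effect of CLA on day 4 differed from the mean effect of the other 6 days in 113 genes by a test of that difference in limma, 104 higher and 9 lower. Those that the naming rule chose follow, 15 of the higher and 8 of the lower. Higher on day 4 were Il1rn by 2.62 on the log2 scale, Plk1 by 2.36, Pclaf by 2.35, Ccnb2 by 2.29, Aurka and Ube2c by 2.23 each, Cd5l by 2.21, Spdl1 by 2.18, Cenpi by 1.95, Cdca8 by 1.90, Clspn by 1.72, Mcm10 by 1.71, Gpnmb by 1.65, Tacc3 by 1.5 and Il10 by 1.15. Lower were Inmt (-1.78), Zfp185 (-1.17), Ldhb (-1.05), Inca1 (-0.94), Sncaip (-0.92), Ppm1l (-0.90), Retnla (-0.90) and Lysmd2 (-0.85). Several of the higher ones had a larger effect on day 3 than on day 4, and 0 genes differed between these days in limma.

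The effect also differed between days 4 and 7 in 20 genes, of which all 5 higher and 7 of the 15 lower on day 7 are given. It was higher on day 7 for Ucp1 (4.23), Cidea (4.06), Clec7a (2.19), Rnf180 (1.69) and H2-Eb1 (1.55). It was lower on day 7 for Plk1 (-2.76), Cdca8 (-2.04), Tacc3 (-2.04), Cenpi (-2.02), Mcm10 (-1.94), Clspn (-1.78) and Il10 (-1.67). How these counts moved when single arrays were left out is given below, and causes were not tested.

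Probe sets that name no single gene lie outside the comparisons above. Of 10092 such probe sets, tested apart, 263 rose and 225 fell on day 4 in limma (4.84%), with log2 folds from -2.965 to 7.23.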

How the results depend on the processing

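Over 14 alternatives the count of genes changed on day 4 ran from 2845 to 5667. It was 3398, 2845, 3297 and 3311 without the first or second CLA or first or second control array of day 4, and 4459 without the first control array of day 2 (2072 fell). Further, 1286 and 1354 genes fell without the second CLA and the second control array. Of the 4379 genes, 64.3% to 75% kept their call when 1 of these arrays was left out, with no sign reversed. With the most variable probe set in place of the brightest, 47 of the called genes reversed sign, and with the mean of a gene's probe sets 10. That mean reversed Fabp4, to -0.80. Of 219 named genes, 201 were called, 162 of them in every setting and 39 not; 7 of the 18 not called were called in some. The share of changed genes that rose was 53.2%, and 47.7% after quantile normalisation.

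Genes whose day 4 effect differed from the other days (113) numbered 67, 8, 18 and 27 without the first or second CLA or first or second control array of day 4, 197 without the first control array of day 2 and 31 with a mean of at least 5. Genes that differed between days 4 and 7 (20) numbered 12, 2, 1 and 1, 61 and 2 in the same order, 13 with the most variable probe set, and, in alternatives chosen after seeing the data, 2 and 3 without the second CLA or the first control array of day 7. Against day 3 the count was 0 in every setting run. The causes of these shifts were not tested. Leaving out arrays or dim genes also means that fewer of them enter the fit.

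Replicate numbers were checked for pairing: the correlation of deviations of CLA and control arrays of the same number was 0.114 on day 4 and between 0.0977 and 0.566 over the 7 days. It was positive on every day but did not reach 0.1 on day 7, and the labels name no shared batch, so the reported fit has no block. With a replicate block of number within day the counts were 5667 on day 4, 337 against the other days and 104 against day 7, and with a block of number over all days 4962, 209 and 38. The number of arrays, and for dim probe sets their distance from background, limits what can be seen.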
